A study of Mus musculus with 27 samples.

Results

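The 10 genes described here encode acute-phase proteins and antiproteases: Serpina3f, Serpina3g, Serpina3n, Slpi, A2m, Lcn2, Hp, Cp, Saa3 and Ptx3. They were picked by symbol out of a table of 23995 genes, and each symbol matched 1 gene. Values of these data were known when the genes were chosen: Serpina3f, Serpina3g and Lcn2 in particular had already stood out in stimulated wild-type cells. Wild-type responses are therefore given as a description, with no p and with nothing read from counts past the threshold, and so are the differences between the genotypes for these 3 genes. The responses of CB2-/- cells are tested, although these tests may not be independent of the choice. Differences between the genotypes are tested for the other 7 genes, although they too contain the wild-type responses.

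Acute-phase proteins are secreted in large amounts when cytokines such as interleukin-6 and interleukin-1 signal inflammation, classically by the liver and also by macrophages, astrocytes and other cells at the site. Some bind and withdraw iron, copper or haemoglobin, some recognise microbes, and the antiproteases among them inhibit the enzymes that leukocytes release. In mice the human SERPINA3 gene has been duplicated into a cluster of closely similar serine protease inhibitor genes. STAT, NF-κB and C/EBP factors are the textbook regulators of acute-phase genes.

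RNA was sequenced from primary microglia, the resident macrophages of the brain, shaken off mixed glial cultures of newborn mouse cortex. The mice were wild-type C57BL/6J or CB2-/- (B6.Cg-Cnr2tm1Zim), which carry a targeted allele of Cnr2, the gene of the cannabinoid receptor CB2. Cells of each genotype were unstimulated or exposed for 16 h to LPS (100 ng/ml) with interferon-γ (20 ng/ml), to PolyI:C, or to CpG (1 nmol/ml), which are ligands of Toll-like receptors 4, 3 and 9. The series asks what role CB2 has when microglia are activated by Toll-like receptor ligands. There were 27 libraries in 9 groups of 3. Unstimulated wild type formed 2 groups that are kept apart, 1 with library numbers 3012 to 3014 and 1 with 2186 to 2188. All stimulated wild-type libraries carried numbers 3015 to 3023 and all CB2-/- libraries 2048 to 2059. Genotype and number series are thus the same split in stimulated cells, and an effect of 1 cannot be told apart from an effect of the other. Whether replicates came from different animals or cultures is not in the labels. The p-values given here then reflect the spread among libraries, which may be technical.

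Levels are normalised counts, and each library's values summed to between 6341300 and 14152000. Cnr2 itself was listed at 217 to 454 in the CB2-/- libraries, at 172 to 233 in unstimulated wild type and at 0 to 22 in stimulated wild type. The genotype therefore rests on the labels, and a gene-level value does not show which exons were read. All 12 microglial markers were in the table, with summed levels of 23116 to 84651 per library, although Siglech was at 0 in the 3 unstimulated libraries 3012 to 3014. In libraries 3012 to 3023 the mitochondrially encoded transcripts held 1.5 to 3.2% of all values, against 0.242 to 1.42% in libraries 2048 to 2188. The gene models Gm19220, Gm26822 and Grip2 together held up to 50.8% of the values in libraries 2048 to 2188, that maximum being the second CB2-/- PolyI:C library, and at most 0.00453% in the others. The part of these differences in the genotype comparisons below was not tested.

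The sequences upstream of 4 genes are shown because they carry the contrasts that follow. Serpina3f and Serpina3g were near 0 without a stimulus and highest with LPS and interferon-γ. Wild-type PolyI:C libraries held up to 55.4 of Serpina3f and 20.7 of Serpina3g. Their neighbour Serpina3n was not near 0 in unstimulated wild type, and Saa3 was the most abundant member under every condition. The sequences are from RefSeq (GRCm38.p6), read 5′ to 3′ on the strand of the gene up to the base before the RefSeq start. For Saa3 the end is the base before the GENCODE gene. Capitals mark matches to 4 motifs searched on both strands: TTCNNNGAA, the palindrome bound by STAT factors, TTGCNNAA, a C/EBP core, an interferon-response element (GAAA, any 2 bases, GAAA), and the NF-κB consensus.
Saa3, chr7:46715701-46715926, minus strand: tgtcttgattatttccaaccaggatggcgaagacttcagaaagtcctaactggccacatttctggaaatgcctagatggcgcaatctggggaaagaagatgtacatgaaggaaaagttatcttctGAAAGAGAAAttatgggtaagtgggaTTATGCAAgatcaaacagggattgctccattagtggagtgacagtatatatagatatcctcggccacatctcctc
Serpina3f, chr12:104214294-104214543, plus strand: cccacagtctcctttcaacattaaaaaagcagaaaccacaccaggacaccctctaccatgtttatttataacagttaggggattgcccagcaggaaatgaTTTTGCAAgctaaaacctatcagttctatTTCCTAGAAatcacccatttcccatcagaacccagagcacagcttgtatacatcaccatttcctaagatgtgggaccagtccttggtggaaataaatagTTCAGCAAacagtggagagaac
Serpina3g, chr12:104235897-104236146, plus strand: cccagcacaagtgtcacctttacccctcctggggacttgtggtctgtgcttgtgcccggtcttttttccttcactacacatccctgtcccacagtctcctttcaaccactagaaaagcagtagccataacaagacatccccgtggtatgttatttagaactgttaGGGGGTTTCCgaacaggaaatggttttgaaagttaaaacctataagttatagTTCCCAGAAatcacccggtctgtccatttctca
Serpina3n, chr12:104406458-104406707, plus strand: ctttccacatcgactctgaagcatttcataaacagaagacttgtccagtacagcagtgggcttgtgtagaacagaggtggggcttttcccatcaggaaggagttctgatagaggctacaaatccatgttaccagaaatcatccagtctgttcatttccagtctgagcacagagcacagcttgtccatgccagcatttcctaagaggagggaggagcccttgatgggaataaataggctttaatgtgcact

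Of the 10 members, 8 had an upstream window of 250 bases, and Cp and Serpina3f had more than 1. Members were counted by gene and the background by window, so count and background are unlike measures. TTCNNNGAA was found in 2 of the 8 members, Serpina3f and Serpina3g, and in 7.02% of 32851 RefSeq windows of the same length. TTGCNNAA was found in 6 (Cp, Lcn2, Ptx3, Saa3, Serpina3f and Slpi), with a background of 9.56%. The Cp match lay only in the window chr3:19956999-19957248, which runs past the GENCODE start of Cp. The Lcn2 and Slpi windows lie inside their GENCODE genes. The interferon-response element was found in Saa3 alone (background 2.98%) and the NF-κB consensus in Serpina3g alone (background 3.9%). No pair of these matches overlapped. A match is a run of letters, not a shown binding site, and a window without one says nothing about the factor.

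The stretch around the TTCNNNGAA match of Serpina3f and Serpina3g is shown over 31 bases with the site in capitals. For Serpina3n it is the stretch of its window with the most bases identical to Serpina3g.
Serpina3f, chr12:104214412-104214442: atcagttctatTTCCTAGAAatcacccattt
Serpina3g, chr12:104236103-104236133: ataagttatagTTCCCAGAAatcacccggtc
Serpina3n, chr12:104406574-104406604: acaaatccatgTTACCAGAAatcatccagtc
With positions counted from 1 at the first capital, Serpina3f differed from Serpina3g within the site by C5T, which lies in the unspecified middle of the motif. Serpina3n differed from Serpina3g by C3A, which breaks the motif. Over the 31 bases, 24 were identical between Serpina3f and Serpina3g, 22 between Serpina3n and Serpina3g and 19 between Serpina3n and Serpina3f. The Serpina3n stretch was picked for its likeness to Serpina3g, so the 22 is the highest its window could give. The site began 121, 131 and 144 bases before the GENCODE starts of Serpina3f, Serpina3g and Serpina3n.

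Serpina3f (chr12:104214544-104221129) and Serpina3g (chr12:104236245-104241939) encode intracellular or secreted serine protease inhibitors of the mouse Serpina3 cluster. Unstimulated wild-type libraries 3012 to 3014 listed Serpina3f at 0, 0 and 0.389, and libraries 2186 to 2188 listed it at 0 in all 3. With LPS and interferon-γ it stood at 2699, 2556 and 2582 in wild type and at 855, 778 and 813 in CB2-/- cells. With PolyI:C it was 0, 38.6 and 55.4 in wild type and 3.32, 2.57 and 0 in CB2-/- cells, and with CpG no library of either genotype exceeded 2.67. The 6 libraries with LPS and interferon-γ stand alone: their lowest value lies far above the highest of the other 21.

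Serpina3g showed the same separation. It was listed at 0 in all 9 unstimulated libraries and in all 3 CB2-/- libraries with PolyI:C. LPS and interferon-γ brought it to 1331, 1323 and 1565 in wild type and to 254, 257 and 232 in CB2-/- cells. Wild-type PolyI:C libraries held 1.75, 20.7 and 11.9, and no CpG library exceeded 2.81. Both genes passed the filter on low values only through the 6 libraries with LPS and interferon-γ and 2 wild-type PolyI:C libraries, so that they were bound to differ between some groups. The 3 wild-type libraries with LPS and interferon-γ were enough to pass it, whatever the CB2-/- libraries held.

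In CB2-/- cells Serpina3f rose with LPS and interferon-γ by a log2 fold change of 8.96 ± 0.99 (SE, n = 3 per group, limma on log2(value + 1), adjusted p = 1.38e-07). Serpina3g rose as well (adjusted p = 6.12e-10, limma), with no fold given because unstimulated cells were listed at 0. With no filter on low values the adjusted p-values were 1.39e-07 and 1.9e-09. Within CB2-/- cells Serpina3f was higher with LPS and interferon-γ than with PolyI:C by 8.36 ± 0.99 and than with CpG by 8.69 ± 0.99 on the log2 scale (adjusted p = 1.64e-06 and 6.01e-07, limma). Neither gene passed the test with PolyI:C or CpG in CB2-/- cells: Serpina3f changed by 0.60 ± 0.99 and 0.27 ± 0.99 (adjusted p = 0.806 and 0.932, limma), and Serpina3g gave adjusted p = 1 and 0.887.

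The levels with LPS and interferon-γ did not overlap between the genotypes for either gene, wild type being higher. The difference between the genotypes' responses, CB2-/- minus wild type, was for Serpina3f -2.24 ± 1.39 in log2 under LPS with interferon-γ and -2.95 ± 1.39 under PolyI:C, where the first wild-type PolyI:C library at 0 sets the spread. Without that library the PolyI:C value was -4.80. For Serpina3g these sizes depend on the pseudocount, since the unstimulated libraries are at 0. For the sum of all Serpina3 genes the difference was 1.81 ± 1.51 under LPS with interferon-γ and 2.30 ± 1.51 under PolyI:C. That sum takes in Serpina3n, which was not near 0 in unstimulated wild type. Unstimulated Serpina3n was 103, 392 and 114 in the wild-type 3012 group and 11.9, 25.9 and 2.8 in CB2-/- cells. The sign of the sum is therefore not a reading of Serpina3f or Serpina3g alone.

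Serpina3n (chr12:104406729-104414329), a secreted inhibitor of granzyme and leukocyte elastase that reactive astrocytes make, had another pattern. It was 103, 392 and 114 in wild-type libraries 3012 to 3014 and 103, 116 and 103 in libraries 2186 to 2188, and 225, 289 and 210 with LPS and interferon-γ. The first wild-type PolyI:C library held 2.36 and the first CpG library 18.9, while the others of these groups held 136 to 313. All 12 CB2-/- libraries lay between 2.8 and 46.5, below every wild-type library but those 2. No stimulus passed the test in CB2-/- cells: the largest difference was 1.61 ± 1.15 with LPS and interferon-γ (adjusted p = 0.369, limma).

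The Serpina3 genes share sequence, which bears on how reads are divided among them. Of the distinct 75-base stretches in the transcripts, the read length used, 7.69% in Serpina3g, 5.33% in Serpina3f and 1.46% in Serpina3n also occur in another gene, in each case a Serpina3 gene. Summed with the other Serpina3 genes in the table, the cluster rose in CB2-/- cells with LPS and interferon-γ (adjusted p = 5.16e-05 for Serpina3f and Serpina3g taken as that sum, limma). The other Serpina3 genes in the table numbered 2, and neither reached the filter.

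**Figure D1:**
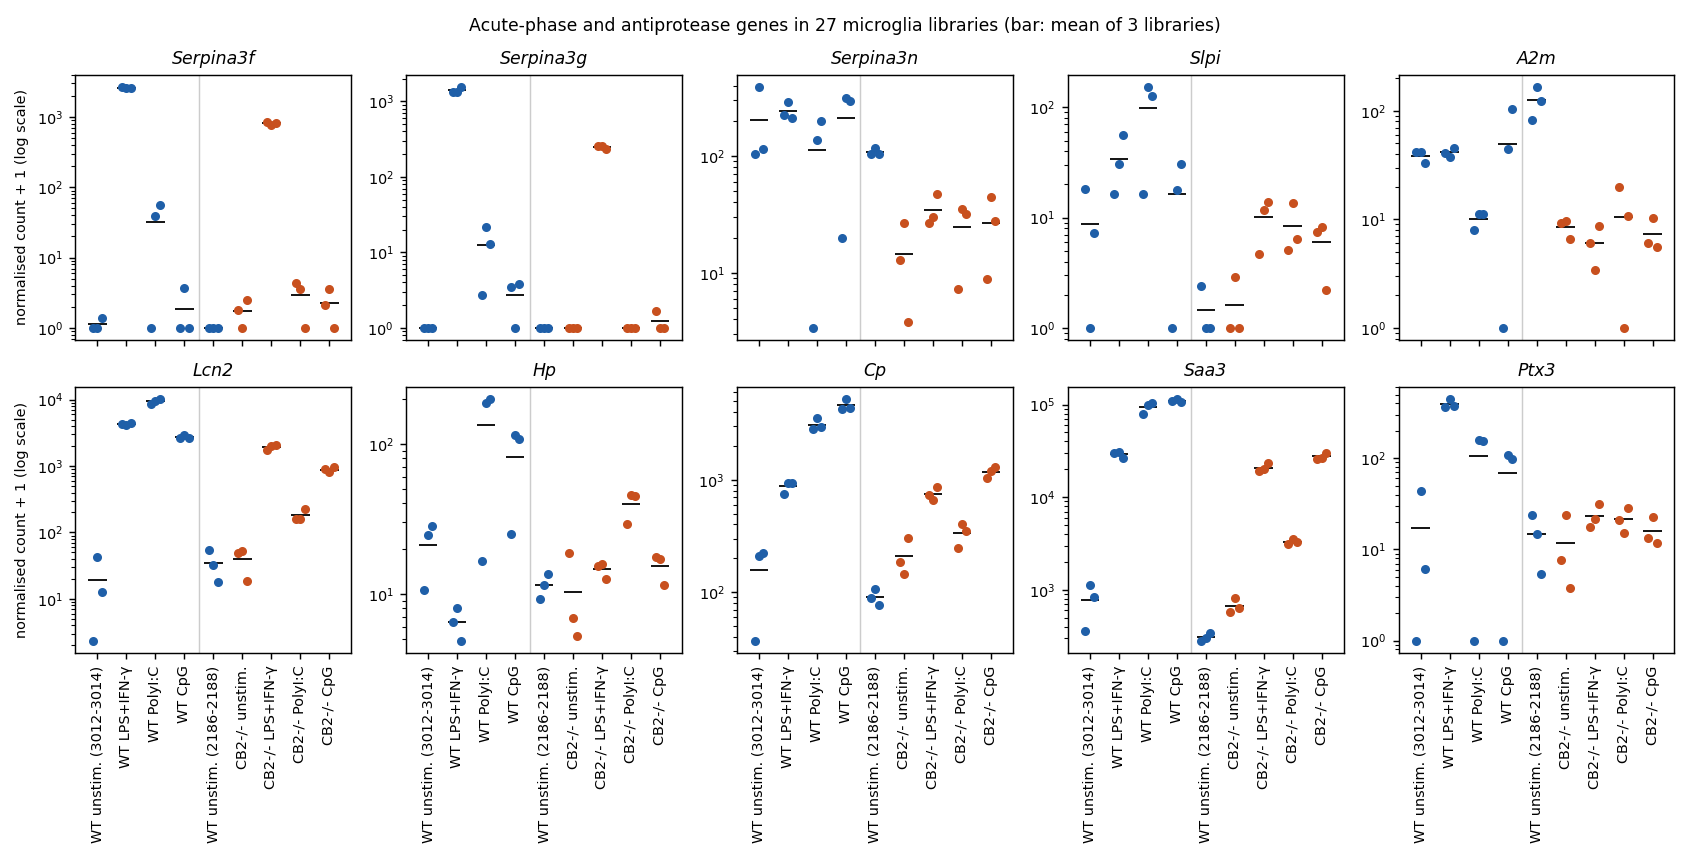
Normalised count + 1 (log axis) of the 10 genes in each of 27 libraries, by group; points are libraries, bars the mean of 3, blue wild type and orange CB2-/-. Serpina3f and Serpina3g are high with LPS and interferon-γ, at 2556 to 2699 and 1323 to 1565 in wild type, while Saa3, Lcn2 and Cp are higher with all 3 stimuli in wild type.

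Slpi and A2m are inhibitors of other kinds, and both were low. Slpi, the secretory leukocyte protease inhibitor, which blocks neutrophil elastase, was listed at 15.4, 153 and 125 in wild-type PolyI:C libraries and at 55 or less in every other library. CB2-/- cells held 0, 1.89 and 0 unstimulated and 3.69, 10.7 and 13 with LPS and interferon-γ, a difference of 2.69 ± 1.13 in log2 that did not pass (adjusted p = 0.0929, limma). A2m, the broad-spectrum protease trap α2-macroglobulin, was 82.1, 166 and 123 in unstimulated wild-type libraries 2186 to 2188 and 8.2, 8.64 and 5.59 in unstimulated CB2-/- libraries. These groups did not overlap, and A2m was lower in CB2-/- cells (log2 difference -3.84 ± 1.10, adjusted p = 0.0269, limma). Wild-type libraries 3012 to 3014 were lower, at 40.4, 40.3 and 32.1, and with both wild-type groups as 1 of 6 libraries the difference was -3.02 (adjusted p = 0.0386). That call was lost when any of 5 of the 6 libraries was left out (adjusted p from 0.0653 to 0.102).

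Summed markers of astrocytes and of fibroblasts were, like A2m and Serpina3n, lower in CB2-/- libraries than in wild-type libraries 2186 to 2188. Tested singly in unstimulated cells, 1 of 8 astrocyte and 1 of 9 fibroblast markers passed as lower, where 9.9% of all genes passed. Microglial sums were lower too (45785 to 48608 in unstimulated CB2-/- cells, 48730 to 65563 in libraries 2186 to 2188). Endothelial sums overlapped (448 to 641 and 597 to 865), and so did neutrophil sums (19.6 to 58.2 and 13.3 to 22.1). Of 10 astrocyte markers 9 were in the table, and their summed level was 1600 to 2674 in wild-type libraries 2186 to 2188 and 179 to 381 over the CB2-/- libraries. The 9 markers of fibroblasts and meninges summed to 725 to 2548 and 32.5 to 110. Within wild type the first libraries of the unstimulated 3012 group, of PolyI:C and of CpG held astrocyte sums of 205, 50.7 and 100, against 350 to 1415 in the other 2 libraries of each group, and fibroblast sums of 13.4, 50.4 and 12.1, against 408 to 3086. Serpina3n, Ptx3, Hp and Slpi were the lowest of their group in the same PolyI:C and CpG libraries, and so were Lcn2, Cp and A2m. Saa3 and Serpina3g were lowest in that PolyI:C library but not in that CpG library. In the first unstimulated 3012 library Serpina3n, Ptx3, Hp, Lcn2, Cp and Saa3 were the lowest of their group. Slpi (17.2 against 0 and 6.27) and A2m (40.4 against 40.3 and 32.1) were the highest of their group there. The part of these cells in the members' values was not tested, and in bulk RNA fewer cells of a type and less RNA per cell cannot be told apart.

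**Figure D2:**
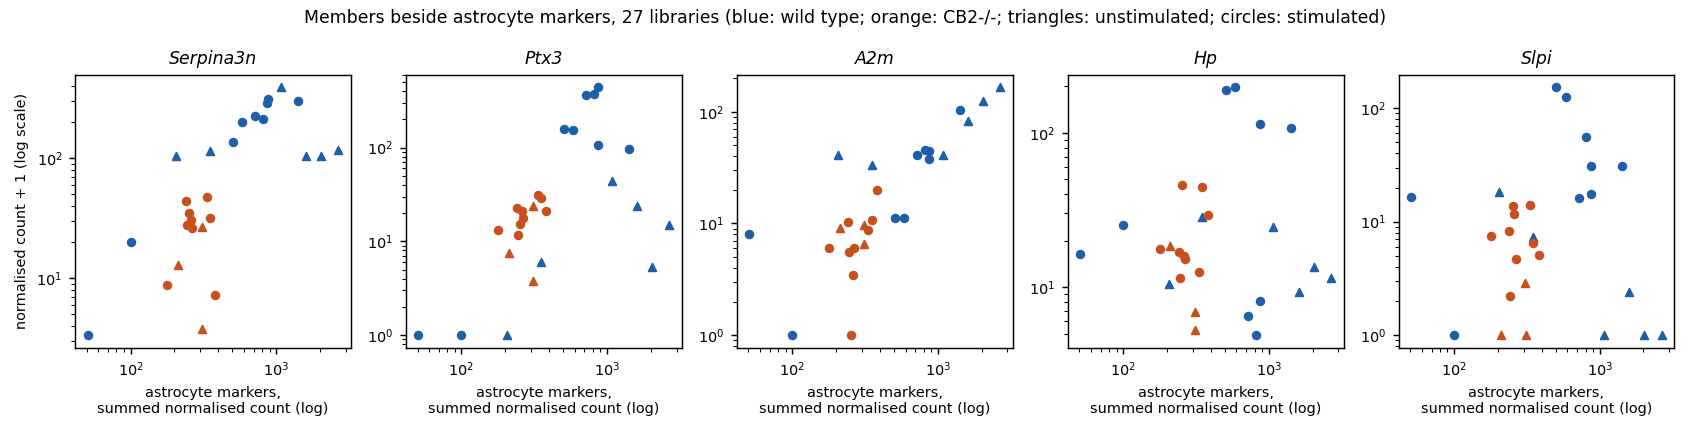
Normalised count + 1 of Serpina3n, Ptx3, A2m, Hp and Slpi against the summed normalised count of 9 astrocyte markers in 27 libraries, both axes logarithmic; blue wild type, orange CB2-/-, triangles unstimulated, circles stimulated. The 12 CB2-/- libraries lie at marker sums of 179 to 381, and the wild-type libraries with sums of 50.7 and 100 hold Serpina3n at 2.36 and 18.9. Unstimulated wild-type libraries with sums of 205 and 350 hold Serpina3n at 103 and 114.

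Lcn2 (chr2:32384633-32388252) encodes lipocalin-2, which binds bacterial siderophores and so withholds iron. It was low without a stimulus: 1.36, 41.4 and 11.5 in wild-type libraries 3012 to 3014, 53.9, 31.6 and 17 in libraries 2186 to 2188, and 47.7, 52 and 17.9 in CB2-/- cells. Wild-type cells reached 8454, 9703 and 10163 under PolyI:C. For LPS with interferon-γ the values were 4243, 4133 and 4428, and for CpG 2606, 2900 and 2676. PolyI:C gave the highest values and CpG the lowest, and the 3 groups did not overlap.

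The order was another one in CB2-/- cells. LPS with interferon-γ gave Lcn2 values of 1759, 2021 and 2054, CpG gave 893, 801 and 954, and PolyI:C gave 159, 156 and 223, which was now the lowest stimulus by far. It rose with each: by 5.73 ± 0.59 in log2 with LPS and interferon-γ (adjusted p = 4.12e-08), by 4.59 ± 0.59 with CpG (2.29e-06) and by 2.28 ± 0.59 with PolyI:C (0.0142, limma, n = 3 per group). The PolyI:C call was lost without the third unstimulated CB2-/- library (1.81, adjusted p = 0.104) or without the third CB2-/- PolyI:C library (2.12, adjusted p = 0.0569). PolyI:C gave less Lcn2 than LPS with interferon-γ (difference 3.45 ± 0.59, adjusted p = 0.000177) and less than CpG (-2.31 ± 0.59, adjusted p = 0.00913, limma), whereas LPS with interferon-γ and CpG did not differ past the threshold (1.14 ± 0.59, adjusted p = 0.294).

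The response of Lcn2 to PolyI:C differed between the genotypes by -7.49 ± 0.83 in log2 (SE), being smaller in CB2-/- cells. This is a description, since the wild-type response that bore on the choice of Lcn2 is part of it. With 1 library left out at a time the value ran from -8.47 to -6.39, and under the other settings from -7.49 to -5.12. It was -7.40 without the second CB2-/- PolyI:C library, in which the 3 gene models above held 50.8% of the values. For CpG and for LPS with interferon-γ the differences were -3.39 ± 0.83 and -2.90 ± 0.83. Both turn on the unstimulated controls: without the first wild-type library, whose Lcn2 value was 1.36, the LPS difference was -1.80, and with both unstimulated wild-type groups taken as 1 of 6 libraries it was -2.12 and the CpG difference -2.61.

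Cp (chr3:19957054-20009145) encodes ceruloplasmin, the copper-carrying ferroxidase that loads iron onto transferrin. It was 36.2, 209 and 223 in wild-type libraries 3012 to 3014, 88.6, 105 and 75.9 in libraries 2186 to 2188 and 184, 145 and 302 in unstimulated CB2-/- cells. CpG gave the highest wild-type values (4236, 5193 and 4340), then PolyI:C (2796, 3526 and 2917), then LPS with interferon-γ (752, 938 and 936), with no overlap between stimuli. CpG gave CB2-/- cells 1033, 1187 and 1294, LPS with interferon-γ 726, 653 and 854, and PolyI:C 246, 399 and 352. The LPS values overlap between the genotypes, while the CpG and PolyI:C values of CB2-/- cells all lie below those of wild type.

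Cp rose in CB2-/- cells with CpG (2.53 ± 0.41 in log2, adjusted p = 5.92e-05) and with LPS and interferon-γ (1.88 ± 0.41, adjusted p = 0.00109, limma). With PolyI:C the difference was 0.70 ± 0.41 and did not pass (adjusted p = 0.355). Compared with wild type the response was smaller for PolyI:C (-3.97 ± 0.57, adjusted p = 1.15e-05) and for CpG (-2.71 ± 0.57, adjusted p = 0.00253), and for LPS with interferon-γ the difference was -0.98 ± 0.57 (adjusted p = 0.324, limma).

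Hp encodes haptoglobin, which binds free haemoglobin, and is an acute-phase gene of the liver. Wild-type PolyI:C libraries held 15.5, 187 and 197 and the CpG libraries 24.1, 113 and 106, the first of each group standing apart, and Hp was at 5.48, 7.1 and 3.89 with LPS and interferon-γ. The CB2-/- PolyI:C libraries held 28.4, 44.6 and 43.8, above all other CB2-/- libraries (4.27 to 17.6). The difference from unstimulated cells was 2.16 ± 0.74 and did not pass (adjusted p = 0.0729, limma). Between the genotypes the PolyI:C responses of Hp differed by 0.03 ± 1.04 (adjusted p = 0.99).

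Saa3 (chr7:46711998-46715700) encodes serum amyloid A3, a form made mainly outside the liver, which carries lipids and retinol and attracts leukocytes. Of the 10 genes it had the highest level per kilobase of exon in all 9 groups. In unstimulated cells it was 358, 1129 and 837 in wild-type libraries 3012 to 3014, 283, 303 and 342 in libraries 2186 to 2188 and 574, 816 and 633 in CB2-/- cells. Wild-type cells with CpG held 108250, 114265 and 105280, which is 1.56 to 1.67% of all values in those libraries. PolyI:C gave 79146, 99438 and 103761, and LPS with interferon-γ 29711, 30937 and 26549, the lowest of the stimuli.

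Saa3 in CB2-/- cells reached 26163, 26441 and 30146 with CpG and 18986, 20164 and 23142 with LPS and interferon-γ. PolyI:C brought it only to 3113, 3508 and 3278. All 3 stimuli raised it: by 5.37 ± 0.24 in log2 with CpG (adjusted p = 5.32e-14), by 4.95 ± 0.24 with LPS and interferon-γ (1.66e-13) and by 2.30 ± 0.24 with PolyI:C (8.52e-07, limma). PolyI:C gave less Saa3 than CpG (-3.06 ± 0.24, adjusted p = 3.31e-09) and less than LPS with interferon-γ (difference 2.65 ± 0.24, adjusted p = 3.48e-08, limma). CpG and LPS with interferon-γ differed by -0.41 ± 0.24 (LPS minus CpG), which did not pass (adjusted p = 0.382).

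The PolyI:C response of Saa3 was smaller in CB2-/- cells, with a difference of -4.76 ± 0.34 in log2 (adjusted p = 2.09e-10). The CpG response was also smaller (-1.92 ± 0.34, adjusted p = 0.000402), and the LPS response differed by -0.42 ± 0.34, short of the threshold (adjusted p = 0.504, limma). Saa3 thus had a response to LPS with interferon-γ of 5.38 ± 0.24 in wild type and 4.95 ± 0.24 in CB2-/- cells, beside 7.07 ± 0.24 and 2.30 ± 0.24 for PolyI:C. Unstimulated CB2-/- cells held more Saa3 than wild-type libraries 2186 to 2188 (1.11 ± 0.24, adjusted p = 0.00331), but the unstimulated wild-type groups differed from each other by as much (2186 to 2188 against 3012 to 3014, -1.18 ± 0.24, adjusted p = 0.00149, limma). With both wild-type groups in 1 the genotype difference was 0.52 (adjusted p = 0.253).

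Ptx3 encodes the long pentraxin, a soluble pattern-recognition protein that tags microbes and activates complement. Wild-type libraries given LPS and interferon-γ held 364, 444 and 376. The PolyI:C libraries held 0, 158 and 153, the CpG libraries 0, 107 and 96.3, and the unstimulated libraries 3012 to 3014 0, 42.9 and 5.06. The 12 CB2-/- libraries lay between 2.74 and 30.4 under every condition, and no stimulus passed the test there (largest difference 1.38 ± 1.61, adjusted p = 0.628, limma). The difference between genotypes in the LPS response was -4.56 ± 2.28 (adjusted p = 0.227), with the 3 wild-type LPS libraries all above the 3 of CB2-/- cells, which held 16.8, 20.3 and 30.4. Without the 3 wild-type libraries lowest in astrocyte markers it was -3.22 and passed (adjusted p = 0.028), a setting chosen after seeing the data; over all alternatives the adjusted p ran from 6.62e-05 to 1.

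**Figure D3:**
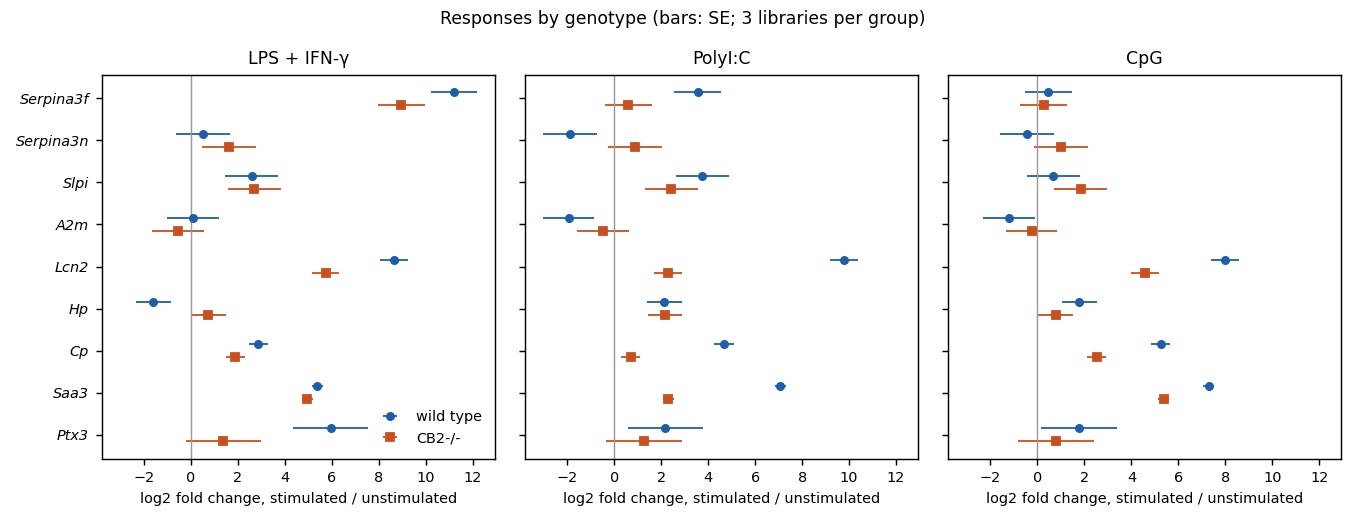
Log2 fold change ± SE of 9 members after each stimulus (3 libraries per group), blue circles wild type against libraries 3012 to 3014 and orange squares CB2-/- against its own unstimulated libraries. Serpina3g is left out because its unstimulated libraries are at 0; Saa3 responses lie close together for LPS with interferon-γ (5.38 and 4.95) and far apart for PolyI:C (7.07 and 2.30).

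Counted over the 10 genes, 5 rose and none fell in CB2-/- cells with LPS and interferon-γ, where 23.7% of the 14668 genes tested changed. The 5 were Serpina3f, Serpina3g, Lcn2, Cp and Saa3, of which the first 2 had passed the filter on low values only through LPS and PolyI:C libraries. With CpG 3 rose (Lcn2, Cp and Saa3; 14.3% of all genes changed), and with PolyI:C 2 rose (Lcn2 and Saa3; 8.55% of all genes changed). The median log2 fold change of the members was 2.28, 0.90 and 1.07, beside 0.03, 0.00 and 0.01 for all genes tested. In wild type the same counts were 6 of 10 for LPS with interferon-γ, 7 for PolyI:C and 3 for CpG, beside 39.7%, 41.1% and 36% of all genes changed, and nothing is read from them since these values bore on the choice. Without the 3 wild-type libraries lowest in astrocyte markers they were 8, 8 and 6.

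In the differences between the genotypes' responses, Cp and Saa3 passed for PolyI:C, both smaller in CB2-/- cells, where 24.8% of all genes passed. Both also passed for CpG (11.8% of all genes), again smaller, and neither did for LPS with interferon-γ (12.3%). With the genes chosen on wild-type values counted too, the numbers were 4, 3 and 1 of 10 members, from which nothing is read. Without the 3 wild-type libraries lowest in astrocyte markers those numbers were 5, 3 and 4. The wild-type side of each difference was known when the genes were chosen, and the 3 differences share the unstimulated libraries of both genotypes, so they are not independent of each other. Between unstimulated CB2-/- and wild-type libraries 2186 to 2188, 2 members passed (Saa3 higher, A2m lower; 9.9% of all genes), and between the unstimulated wild-type groups 1 did (Saa3; 12% of all genes). Among pairs of stimuli in CB2-/- cells 4 members passed for LPS with interferon-γ against PolyI:C (11.9%), 2 for LPS with interferon-γ against CpG (10.2%) and 3 for PolyI:C against CpG (12%). The same pairs in wild type gave 5, 5 and 4 members beside 9.26%, 32.8% and 30.1% of all genes, from which nothing is read.

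**Figure D4:**
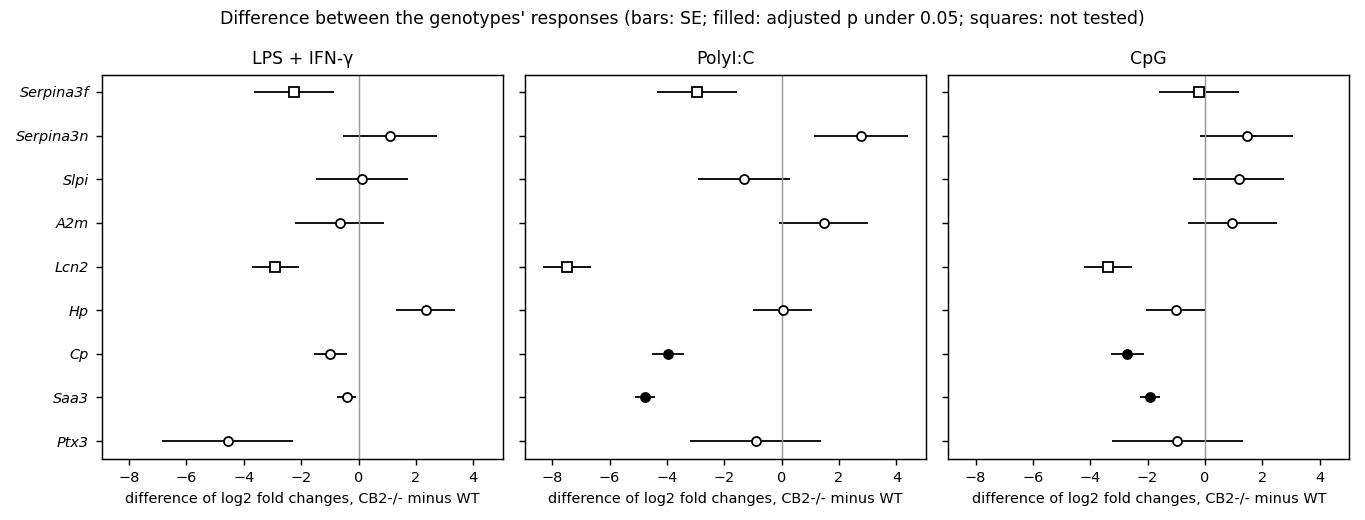
Difference between the log2 responses, CB2-/- minus wild type, ± SE for 9 members and 3 stimuli (filled circles: adjusted p under 0.05; squares: Lcn2 and Serpina3f, not tested; Serpina3g left out because its unstimulated libraries are at 0). Lcn2 (-7.49), Saa3 (-4.76) and Cp (-3.97) lie farthest below 0 for PolyI:C, and no circle is filled for LPS with interferon-γ.

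Neutrophils carry Lcn2, Slpi and Hp. Of 9 neutrophil markers 6 were in the table, and their summed level was 5.47 to 22.1 in unstimulated and 61.7 to 397 in stimulated wild-type libraries, and 19.6 to 58.2 and 23.1 to 72 in unstimulated and stimulated CB2-/- libraries. Mpo, Ltf, Ngp and S100a9 were at 0 in all 15 wild-type libraries. In CB2-/- cells only Mpo was at 0 in all 3 unstimulated libraries, and only Ngp in all 3 with LPS and interferon-γ. Ltf and S100a9 were at 0 in all 3 CB2-/- libraries with CpG, and all 4 genes in those with PolyI:C. The 2 markers that could be tested had a median log2 fold change of 3.03, 4.52 and 4.62 in wild type with LPS and interferon-γ, PolyI:C and CpG, and both responded less to PolyI:C in CB2-/- cells (median difference -3.59). Their part in the members' values was not tested. Of 5 hepatocyte markers 1, Ttr, was in the table, at 30 or less in every library.

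Ranked by mean normalised count per kilobase of exon, the members in CB2-/- cells with LPS and interferon-γ ran from Saa3 (7968 ± 822, SD, n = 3) through Lcn2 (742 ± 61.6), Serpina3f (356 ± 16.9), Serpina3g (118 ± 6.48) and Cp (77.8 ± 10.7) to Serpina3n (16.3 ± 5.43). Hp (8.47 ± 1.1), Ptx3 (8.39 ± 2.63) and Slpi (7.75 ± 4.12) followed within 1 SD of each other, and A2m was last (0.724 ± 0.378). For both other stimuli the first 3 places in CB2-/- cells went to Saa3, Lcn2 and Cp, at 1266 ± 76.1, 68.4 ± 14.5 and 34.7 ± 8.19 under PolyI:C and 10585 ± 853, 336 ± 29.2 and 122 ± 13.7 under CpG.

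The genes most like several members across the 27 libraries, by Pearson's r of log2 values over 9210 genes, are given as a description, since all points share the same libraries and groups. Serpina3f and Serpina3g were each among the other's 3 nearest genes (r = 0.967), with Wars (0.935 and 0.968), the interferon-induced tryptophanyl-tRNA synthetase. Cp lay nearest to Saa3 (0.96). Lcn2 lay nearest to Hspa5 (0.972), the chaperone BiP of the endoplasmic reticulum. Serpina3n lay nearest to Tubb2b (0.912) and Ncan (0.881), a neural tubulin and a brain proteoglycan, A2m to Atp1b2 (0.882), a glial sodium pump subunit, and Ptx3 to Tm4sf1 (0.905).

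The gene lists used from here on were chosen with earlier results of these data known. Their differences between the genotypes also contain the wild-type responses, so the counts of these differences are given as a description. The cytokines that drive acute-phase genes are known members of the same pathway, and 9 of a list of 12 were tested. In CB2-/- cells 6 rose and 1 fell with LPS and interferon-γ, 5 rose and 1 fell with CpG, and 4 rose with PolyI:C. Over all genes tested 23.7%, 14.3% and 8.55% changed with these stimuli. Il6, the main inducer of hepatic acute-phase genes, rose by 6.57 ± 0.67, 5.98 ± 0.67 and 2.44 ± 0.67 in log2 with LPS and interferon-γ, CpG and PolyI:C (adjusted p = 3.85e-08, 3.16e-07 and 0.0221, limma). Compared with wild type, 4 of the 9 responded less to PolyI:C in CB2-/- cells and none more, beside 24.8% of all genes that passed: Il6 (-8.29 ± 0.94), Csf3 (-6.57 ± 0.87), Il1a (-6.08 ± 1.21) and Tnf (-4.72 ± 0.29). For LPS with interferon-γ 5 responded less and none more (12.3% of all genes passed), and for CpG 1 less (Tnf, -1.29 ± 0.29) and 1 more (Il1b, 3.12 ± 0.48; 11.8% of all genes). The Il6 response to CpG differed by -0.84 ± 0.94 (adjusted p = 0.643, limma). Unstimulated Il6 was 0, 2.43 and 1.07 in the wild-type 3012 group and 16.2, 34.3 and 14.4 in CB2-/- cells. The sizes of the Il6 differences therefore depend on the pseudocount and on the unstimulated libraries. With PolyI:C Il6 was 1152, 5421 and 5504 in wild type and 86.6, 137 and 122 in CB2-/- cells. With CpG CB2-/- cells held more, at 1445, 1387 and 1169 against 50.7, 488 and 403.

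All 24 receptors and signalling genes of the list were tested. In CB2-/- cells 13 rose and 3 fell with LPS and interferon-γ, 6 rose and 2 fell with CpG, and 9 rose and 1 fell with PolyI:C. The shares of all genes that changed were again 23.7%, 14.3% and 8.55%. Socs3, the feedback inhibitor of interleukin-6 signalling, rose by 2.64 ± 0.23, 2.58 ± 0.23 and 1.35 ± 0.23, and Nfkbiz, the NF-κB cofactor IκBζ that Lcn2 transcription is known to need, by 2.15 ± 0.13, 3.51 ± 0.13 and 1.01 ± 0.13 (largest adjusted p = 0.000364, limma). The PolyI:C response was smaller in CB2-/- cells for 13 and larger for 5 (24.8% of all genes passed). The smaller ones included Socs3 (-3.67 ± 0.32) and Nfkbiz (-2.89 ± 0.19). The Socs3 difference contains a gap between unstimulated cells: 1101, 1355 and 1147 in CB2-/- cells against 181, 314 and 291 in the wild-type 3012 group. With PolyI:C Socs3 was 3170, 3092 and 2909 in CB2-/- cells against 6828, 8857 and 9520 in wild type. Stat3 differed by -1.20 ± 0.20 for PolyI:C (adjusted p = 6.52e-05) and by -0.11 ± 0.20 and 0.01 ± 0.20 for the other stimuli (0.799 and 0.982). Cebpb and Cebpd, the C/EBP factors of the acute phase, did not pass in CB2-/- cells with any stimulus, with values from -0.45 ± 0.27 to 0.69 ± 0.27.

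Of 36 other acute-phase genes 22 were in the table and 13 were tested. With LPS and interferon-γ 3 rose and 2 fell in CB2-/- cells, where 23.7% of all genes changed. The complement genes C3 (2.45 ± 0.13) and Cfb (3.33 ± 0.84) rose, and Fn1 (-4.39 ± 0.72) and Trf (-2.47 ± 0.42), fibronectin and transferrin, fell. The C3 response differed between the genotypes by -0.71 ± 0.19 for PolyI:C (adjusted p = 0.0068) and by -0.42 ± 0.19 for LPS with interferon-γ, short of the threshold (adjusted p = 0.167, limma). Cfb responded less in CB2-/- cells to PolyI:C (-5.42 ± 1.19, adjusted p = 0.00135) and to LPS with interferon-γ (-3.76 ± 1.19, adjusted p = 0.0389, limma). Unstimulated Cfb was 0, 58.4 and 39.3 in the wild-type 3012 group and 178, 322 and 192 in CB2-/- cells. Both differences therefore depend on the unstimulated libraries. CB2-/- cells held more Cfb with LPS and interferon-γ (2144, 2444 and 2185 against 1713, 1864 and 1898). They held less with PolyI:C (761, 575 and 808 against 1455, 1937 and 2125).

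Among 25 other protease inhibitors tested, 4 rose and 5 fell in CB2-/- cells with LPS and interferon-γ, where 23.7% of all genes changed. Serping1, the complement C1 inhibitor, led (3.97 ± 0.87, adjusted p = 0.00122, limma), with Cst7 at 2.07 ± 0.38. PolyI:C gave 0 higher and 1 lower, beside 8.55% of all genes. Of 19 proteases tested, 7 responded less to LPS with interferon-γ in CB2-/- cells and none more, and 10 responded less and 2 more to PolyI:C, beside 12.3% and 24.8% of all genes, Mmp13 by -6.80 ± 0.56 and -8.88 ± 0.56. Among 21 receptors and partners of the members, Slc40a1, the iron exporter ferroportin whose iron Cp oxidises, stood at 289 ± 57.3 unstimulated and 226 ± 30.9 with CpG in CB2-/- cells (SD, n = 3), and at 0, 2.4 and 10.2 in wild type with CpG. Its CpG and PolyI:C responses differed by 5.94 ± 0.83 and 4.90 ± 0.83 (adjusted p = 3.3e-05 and 8.17e-05, limma). Slc22a17, a receptor for lipocalin-2, did not pass the test in CB2-/- cells with any stimulus, at 20.4 to 28.5 in all 12 libraries.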

How the data were processed

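Single-end 75-base RNA sequencing of 27 microglia libraries was described in the labels, with 2 library protocols (TruSeq v2 and SMART-Seq2) that are not tied to libraries. CASAVA 1.8, kallisto and DESeq2 are named in the submitters' processing notes; the build is not given in the sources used here. Normalised counts per gene were deposited, a signal of at least 0 that is not whole. Only 45.7 to 67.7% of a library's low values fell within 0.01 of a multiple of its commonest smallest value, so reads were not recovered and count tests were not run. The authors' deposited batch-corrected table, read as a score on a log2-like scale, served as an alternative, with the batches unstated.

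Groups came from the labels. Replicate pairs were compared and none were identical (27 pairs, chi-square per degree of freedom 5.48 to 582). The scale was log2(value + 1), on which 14668 genes with values of 10 or more in 3 or more libraries, all 10 members among them, were fitted with limma 3.58.1 in R 4.3.3 (9 group means, trended variance, two-sided, Benjamini-Hochberg over all genes tested, threshold 0.05). There were 17 comparisons: wild-type responses against libraries 3012 to 3014, CB2-/- responses, their differences, stimulus pairs, unstimulated CB2-/- against libraries 2186 to 2188, and the unstimulated wild-type groups. Log2 fold changes on this scale understate the change of low genes. The fit was tested on simulated data. The members and all gene and marker lists were chosen with earlier results of these data known. Named genes are the members, a fixed panel, up to 4 called genes per list and comparison with the largest change among those averaging 100 or more in the higher group, and the 3 genes most correlated with each member, of which not all are reported here. Gene positions and exon lengths are from GENCODE M21 (GRCm38), where 23933 of 23995 identifiers matched, and upstream sequences from RefSeq. Figures were drawn with matplotlib 3.10.9.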

Additional observations from a re-analysis of the deposited data

Results flagged for a closer look

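The responses of 4 members differed between the genotypes past the threshold of the fit (CB2-/- minus wild type, log2 ± SE, limma over all genes tested). Each difference contains the wild-type response, which was known when the genes were chosen. For Lcn2 and Serpina3g, chosen on it, the values are a description only, and for Cp and Saa3 the test is not independent of that knowledge. For PolyI:C the differences were -7.49 ± 0.83 for Lcn2, -4.76 ± 0.34 for Saa3, -3.97 ± 0.57 for Cp and -3.20 for Serpina3g. In Serpina3g this sets wild-type values of 1.75, 20.7 and 11.9 against CB2-/- libraries listed at 0, so the size depends on the pseudocount. For CpG they were -3.39 ± 0.83 for Lcn2, -2.71 ± 0.57 for Cp and -1.92 ± 0.34 for Saa3. For LPS with interferon-γ the difference was -2.90 ± 0.83 for Lcn2. All 3 replicates of CB2-/- cells lay below all 3 of wild type in the stimulated levels behind each of these values. These values were listed because they passed the threshold, so the separation adds no support of its own. The share of all genes separated in this way was not counted. Genotype and library number series cannot be told apart in the stimulated groups.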

How the results depend on the processing

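The p-values rest on 3 libraries per group, and levels under about 10 normalised counts carry little information on this scale. No paired analysis was possible because the replicates were numbered in record order and share no number across groups. Of 26 tested member results past the threshold, 17 stayed past it under every alternative, among them the smaller PolyI:C responses of Saa3 and Cp and the LPS responses of Serpina3f, Serpina3g, Lcn2 and Saa3 in CB2-/- cells, and 24 stayed past it with each library left out. The test against a fold threshold of 1 on the log2 scale asks for more than a difference from 0 and ended the 9 others, including the smaller CpG responses of Cp and Saa3. The cause of other changes was not tested. Quantile scaling moved the median of all genes by over 0.1 in 5 comparisons.

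Of 1671 member values under alternatives other than leaving out 1 library, 61 that were past the threshold under neither setting changed sign, among them the LPS differences between genotypes of Serpina3f and Serpina3g (1.81 for the sum of all Serpina3 genes, against -2.24 and -2.50). The sum also takes in Serpina3n, so it is not a reading of Serpina3f or Serpina3g alone. Of values past the threshold under either setting, 6 reversed. Ptx3 in unstimulated CB2-/- cells against wild type was 1.07 in the batch-corrected table. The sum of all Serpina3 genes gave -1.39 for wild-type PolyI:C against unstimulated cells (Serpina3f and Serpina3g), 2.30 for the PolyI:C difference between genotypes (Serpina3g) and -0.99 for wild-type PolyI:C against CpG (Serpina3f and Serpina3g).

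Counts of members past the threshold moved by more than 1.5 times as follows. With a pseudocount of 10 there were 4 for the LPS difference between genotypes (main 1), and without a variance trend 2. Without the filter there were 2 for wild-type PolyI:C against CpG (main 4). With quantile scaling there were 4 for unstimulated CB2-/- against wild type (main 2). Library weights gave 5 for wild-type CpG (main 3), 4 for the LPS difference, 4 for unstimulated CB2-/- against wild type, 4 between the wild-type groups (main 1), 8 for wild-type LPS against PolyI:C (main 5) and 4 for LPS against CpG in CB2-/- cells (main 2). The fold threshold gave 4 for wild-type PolyI:C (main 7), 1 for CB2-/- PolyI:C (main 2), 0 for the LPS and CpG differences, for both unstimulated comparisons and for wild-type PolyI:C against CpG, 2 for wild-type LPS against PolyI:C and 1 for CB2-/- PolyI:C against CpG (main 3). The batch-corrected table gave 6 for wild-type CpG, 4 for CB2-/- PolyI:C, 5 for the LPS difference, 5 for unstimulated CB2-/- against wild type and 0 between the wild-type groups. Fitting only the libraries compared gave 3 for the LPS difference, 0 between the wild-type groups, 2 for wild-type PolyI:C against CpG and 5 for CB2-/- LPS against CpG. With 1 unstimulated wild-type group the LPS difference had 0, and the Serpina3 sum left 2 for wild-type PolyI:C against CpG and 1 for CB2-/- LPS against CpG. Without the 3 wild-type libraries lowest in astrocyte markers (added after seeing the data) there were 6 for wild-type CpG, 4 for the LPS difference and 2 between the wild-type groups.

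Leaving out 1 library at a time, the members' counts ran from 3 to 5 for wild-type CpG, 1 to 3 for CB2-/- PolyI:C, 0 to 1 for the LPS difference, 1 to 2 for unstimulated CB2-/- against wild type, 1 to 2 between the wild-type groups and 0 to 4 for wild-type PolyI:C against CpG.

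Over all genes the count called ranged widely with the setting: 18 to 2250 for CB2-/- PolyI:C (main 1254), 297 to 4158 for CB2-/- CpG (2092), 636 to 5603 for CB2-/- LPS (3471), 145 to 4453, 680 to 5528 and 79 to 2967 for the LPS, PolyI:C and CpG differences (1810, 3636 and 1726), 90 to 3445 for unstimulated CB2-/- against wild type (1452) and 0 to 3232 between the wild-type groups (1758). For stimulus pairs in CB2-/- cells it was 121 to 2772, 206 to 3723 and 88 to 2962 (1747, 1493 and 1754), for wild-type responses 1671 to 8349, 1783 to 8080 and 1058 to 5972 (5830, 6032 and 5285), and for wild-type pairs 93 to 2755, 1091 to 5474 and 798 to 5146 (1358, 4812 and 4412).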
